A study of Mus musculus with 18 samples.

Results

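The T cell receptor of most T cells is a pair of an alpha and a beta chain, and each chain begins with a variable (V) segment that the cell picked from the genome by rearrangement. This account follows the 165 genes of the count table whose names begin with Trav or Trbv and a number, 130 alpha and 35 beta V segments, of 55284 named entries in all. They were taken by name alone, with no measured value. Their reads were counted in 18 libraries of CD4+CD25- T cells sorted from spleen and lymph node of 3 mixed bone marrow chimeras, called 10, 11 and 12 in the labels. Lethally irradiated CD45.1 BoyJ hosts had received marrow that lacks the nuclear receptors Nr4a1 and Nr4a3 in the germline (DKO, Nr4a1-/- Nr4a3-/-, CD45.2) and WT marrow (CD45.1/2), mixed as DKO to WT at 1:5, so that both genotypes matured in the same animal. The labels give the strain as C57BL/6 and no age. Each chimera gave WT and DKO cells of 3 kinds, which makes 6 groups of 3 libraries. Naive cells (CD62LhiCD44loFR4loCD73lo) were lysed as sorted, stimulated naive cells were cultured for 3 h on plate-bound anti-CD3 (8 µg/ml) with anti-CD28 (2 µg/ml), and anergic cells (CD62LloCD44hiFR4hiCD73hi) were lysed as sorted. Every cell of the DKO donor lacks both genes, not T cells alone. The hosts carry CD45.1 as the WT donor does, and T cells left over from the host were not quantified in these data.

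A developing T cell joins 1 Trbv segment to a D and a J segment and later 1 Trav segment to a J segment, and most mature cells keep a single productive pair. The V segment encodes the first and second complementarity-determining loops (CDR1 and CDR2), which mostly touch the MHC molecule, and the first residues of CDR3, which mostly touches the peptide. Which V segments a population uses therefore reflects how often each segment rearranges and which receptors survive selection. Older names group the beta segments as Vβ families: Trbv13-1, Trbv13-2 and Trbv13-3 are Vβ8, Trbv12-1 and Trbv12-2 are Vβ5, Trbv16 is Vβ11 and Trbv31 is Vβ14. Trbv31 lies beyond the constant genes in the opposite orientation and joins by inversion.

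The ends of the beta segments on which the results below turn are shown because they are the part that enters CDR3. Each line gives the last 45 bases of the annotated transcript (GENCODE vM21, mouse GRCm38, which is mm10), 5′ to 3′. Capitals mark the first in-frame TGT or TGC codon within the last 24 bases, the cysteine at which CDR3 starts. All lie on chromosome 6, Trbv31 on the minus strand and the others on the plus strand.
Trbv12-1 (chr6:41113550-41114067): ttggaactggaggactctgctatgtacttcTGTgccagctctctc
Trbv12-2 (chr6:41118851-41119364): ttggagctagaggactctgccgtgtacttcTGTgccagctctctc
Trbv3 (chr6:41048290-41048828): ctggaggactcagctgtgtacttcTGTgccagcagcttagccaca
Trbv1 (chr6:40891229-40891885): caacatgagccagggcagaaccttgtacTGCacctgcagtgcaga
Trbv20 (chr6:41188273-41188977): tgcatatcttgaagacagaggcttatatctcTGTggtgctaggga
Trbv31 (chr6:41557691-41558452): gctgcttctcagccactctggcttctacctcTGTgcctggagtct
Trbv12-1 and Trbv12-2 end in the same 15 bases from the cysteine codon on, and over 385 aligned bases they are 88.3% identical. From 11 to 18 bases follow the cysteine codon in these 6 segments.

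Many alpha segments exist in near-identical copies, because a stretch of the Trav locus on chromosome 14 is repeated and the copies carry the letters d and n in their names. The 3 copies of Trav14-3, among the most used alpha segments here, are shown over the 60 bases in which they differ most, ending 5 bases before the 3′ end, with the differing positions in capitals.
Trav14-3 (chr14:53763173-53763694): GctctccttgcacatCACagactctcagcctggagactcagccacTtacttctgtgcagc
Trav14n-3 (chr14:53370077-53370575): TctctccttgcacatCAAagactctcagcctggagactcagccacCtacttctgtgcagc
Trav14d-3-dv8 (chr14:53078452-53079045): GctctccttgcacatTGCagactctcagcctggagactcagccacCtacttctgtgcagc
Over 361 aligned bases 16 positions differ among the 3. Trav7-4 and Trav7d-4 differ at 2 of 451 positions. Of the 130 alpha segments, 39 have no stretch of 50 bases of their own and 74 have fewer than 50% of such stretches unique, so the split of reads among alpha copies is uncertain. No beta segment is under 50%.

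Values are given as a share, the counts of a segment over all Trav or all Trbv counts of its library, in percent. A library held 16122020 to 39752234 counts on named genes, of which 5318 to 19898 were Trav and 7946 to 31765 Trbv counts. RNA equivalent to 2000 cells went into each library. If each of 2000 cells gave the same number of reads, the binomial standard error of a share would be 0.222 points at 1% and 0.671 points at 10%, and reads of one cell are not independent of each other. In chimera 12 the naive and the stimulated WT library stood apart from the other 16 libraries, with 776 and 554 CPM (counts scaled to a common library total) on olfactory and vomeronasal receptor genes against 1356 to 3117 CPM elsewhere. T cell genes were high throughout: the 5 CD4 T cell markers summed to 10966 to 16760 TPM (length-corrected counts scaled to a common total), the 2 CD8 genes to 28.2 to 92.8 TPM, the 6 gamma-delta markers to 6.00 to 28.9 TPM and the 5 B cell markers to 10.6 to 42.7 TPM. Cd8a, Trgc2 and Trgc4 were each at 0 in 1 library, and no other marker of these 4 lists was at 0. The 6 Treg markers summed to 1296 to 1605 TPM in WT anergic and 576 to 615 TPM in DKO anergic libraries, against 19.3 to 26.6 TPM in naive libraries of both genotypes. The list also holds activation genes: its sum was 177 to 236 TPM in stimulated libraries, where Il2ra alone averaged 141 (WT) and 160 TPM (DKO). Foxp3, the defining transcription factor of Tregs, averaged 1.47 and 0.956 TPM in WT and DKO naive and 0.832 and 0.214 TPM in stimulated cells, and had 492 ± 43.2 TPM (SD, n = 3) in WT anergic and 19.7 ± 1.59 TPM in DKO anergic cells.

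Beta usage was carried by few segments. Trbv13-2, the most used, took 12.4% of Trbv counts on average over the 18 libraries, Trbv3 8.99%, Trbv1 8.82%, Trbv16 8.31%, Trbv31 7.70% and Trbv19 7.56%. With Trbv12-2 (6.58%), Trbv13-3 (6.39%), Trbv13-1 (6.29%) and Trbv2 (5.92%) these 10 held 78.9%. A further 7 segments had at least 1%, and 27 of the 35 had a count in each library. The 13 segments annotated as pseudogenes held 0.438 to 1.25% together. The 3 Vβ8 segments summed to 25.5% ± 0.271 (SD, n = 3) in WT naive and 24.6% ± 0.824 in DKO naive cells.

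**Figure D1:**
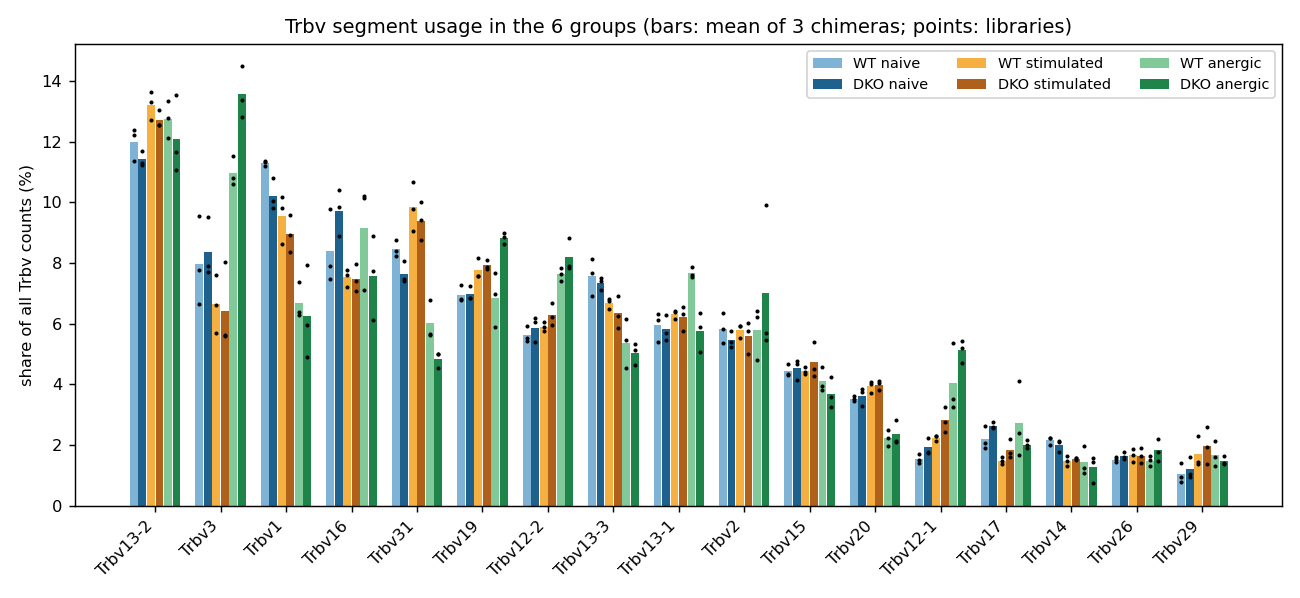
Share of all Trbv counts (%) of the 17 beta segments with a mean of at least 1%, ordered by mean share, with 1 bar for the mean of each of the 6 groups and points for the 3 libraries. Trbv3 and Trbv12-1 are highest in the anergic groups, and Trbv1, Trbv31 and Trbv20 are lowest there.

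Alpha usage was spread more widely. Trav14d-3-dv8 led with 5.45% of Trav counts, followed by Trav7-4 (4.14%), Trav14-2 (4.03%), Trav14n-3 (3.93%), Trav3-3 (3.79%), Trav13-1 (3.47%), Trav4-4-dv10 (3.38%), Trav14-3 (3.17%), Trav14-1 (3.10%) and Trav9-2 (3.00%). These 10 held 37.5%, 34 segments had at least 1%, and 72 of 130 had a count in each library. Segments with neither letter in the name carried 74.5% ± 0.158 (SD, n = 3) of Trav counts in WT naive cells, those with d 13.3% ± 0.632 and those with n 12.2% ± 0.548. The 20 annotated alpha pseudogenes held 1.83 to 3.40%. Of all 165 segments 27 had no count in any library. After the filter on low counts 102 segments, 76 alpha and 26 beta, entered the tests.

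The comparison of anergic with naive cells asks whether the cells of the anergic gate carry other receptors than the naive pool of the same animal. Trbv12-1 was the clearest case. In WT naive cells it took 1.41, 1.70 and 1.51% of Trbv counts in chimeras 10, 11 and 12, and in WT anergic cells 3.51, 5.35 and 3.27%. In DKO cells the shares were 1.78, 1.74 and 2.22% in naive and 5.43, 5.20 and 4.72% in anergic cells. Anergic and naive libraries did not overlap in either genotype. The log2 change in share was 1.39 in WT cells (standard error 0.23, adjusted p = 0.000130 by edgeR's quasi-likelihood test with Benjamini-Hochberg adjustment over all genes) and 1.42 in the DKO libraries (standard error 0.23, adjusted p = 9.28e-05). It passed the threshold of 0.05 under all 11 alternative settings in both genotypes.

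Trbv12-2, the other Vβ5 segment, and Trbv3 also had higher shares in anergic cells. Trbv12-2 held 5.91, 5.42 and 5.52% in WT naive and 7.63, 7.40 and 7.85% in WT anergic cells. In DKO cells it held 6.05, 5.40 and 6.18% in naive and 7.90, 8.83 and 7.84% in anergic cells. The groups did not overlap, and the adjusted p was 0.146 in WT and 0.106 in DKO cells (edgeR). The Vβ5 pair together took 7.16% ± 0.149 in WT naive and 11.7% ± 0.939 in WT anergic cells, and 7.79% ± 0.630 in DKO naive and 13.3% ± 0.741 in DKO anergic cells (SD, n = 3 each). Trbv3 held 9.55, 7.76 and 6.65% in WT naive and 10.6, 10.8 and 11.5% in WT anergic cells. In DKO cells it held 9.51, 7.70 and 7.89% in naive and 12.8, 13.4 and 14.5% in anergic cells, and in chimeras 11 and 12 it was the most used beta segment of DKO anergic cells. All anergic libraries lay above all naive ones of their genotype. The log2 change of Trbv3 was 0.71 in DKO cells (standard error 0.19, adjusted p = 0.0169) and 0.48 in WT cells (standard error 0.19, adjusted p = 0.153). With 1 chimera left out the DKO change stayed between 0.62 and 0.84, but without chimera 10 or chimera 11 it did not pass (adjusted p = 0.0618 and 0.442).

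Trbv1, Trbv31 and Trbv20 were lower in anergic cells. Trbv1 fell from 11.2, 11.4 and 11.3% in WT naive to 7.38, 6.37 and 6.28% in WT anergic cells, and from 9.82, 10.8 and 10.1% to 4.89, 5.95 and 7.93% in DKO cells. Its log2 change was −0.75 in WT (adjusted p = 0.0101) and −0.72 in DKO cells (adjusted p = 0.0147), each with a standard error of 0.19 (edgeR). Trbv31 was at 8.41, 8.76 and 8.22% in WT naive and 5.62, 6.77 and 5.67% in WT anergic cells, and at 7.48, 8.05 and 7.40% in DKO naive and 4.55, 4.996 and 4.996% in DKO anergic cells. Its log2 change was −0.66 in DKO cells (standard error 0.18, adjusted p = 0.0149) and −0.50 in WT cells (standard error 0.18, adjusted p = 0.0853). Trbv20 had 3.44, 3.61 and 3.51% in WT naive and 1.95, 2.49 and 2.24% in WT anergic cells, with a log2 change of −0.66 (standard error 0.21, adjusted p = 0.0453). That call was lost in 6 of 11 alternatives, among them TMM and RLE scaling to the whole library (changes of −0.74 and −0.96, adjusted p = 0.0646 and 0.0631), no filter on low counts (0.123) and a fit of only the groups compared (0.210). In DKO cells it had 3.74, 3.28 and 3.85% in naive and 2.82, 2.15 and 2.10% in anergic cells, with an adjusted p of 0.0666. For these 3 segments no anergic library reached a naive one of its genotype. With 1 chimera left out the changes kept their size, at −0.84 to −0.71 for Trbv1 in WT, −0.93 to −0.59 for Trbv1 in DKO, −0.70 to −0.63 for Trbv31 in DKO and −0.73 to −0.59 for Trbv20 in WT cells. In these smaller fits none of the 4 passed without chimera 10 or without chimera 11, with adjusted p of 0.0657 and 0.208 for Trbv1 in WT, 0.300 and 0.471 for Trbv1 in DKO, 0.232 and 0.416 for Trbv31 in DKO and 0.451 and 0.214 for Trbv20 in WT cells. They are statements about shares: scaled to the whole library by TMM, the log2 change in DKO cells was −0.23 for Trbv1, −0.16 for Trbv31 and −0.12 for Trbv20, and by RLE, a second scaling, −0.11, −0.03 and 0.02.

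**Figure D2:**
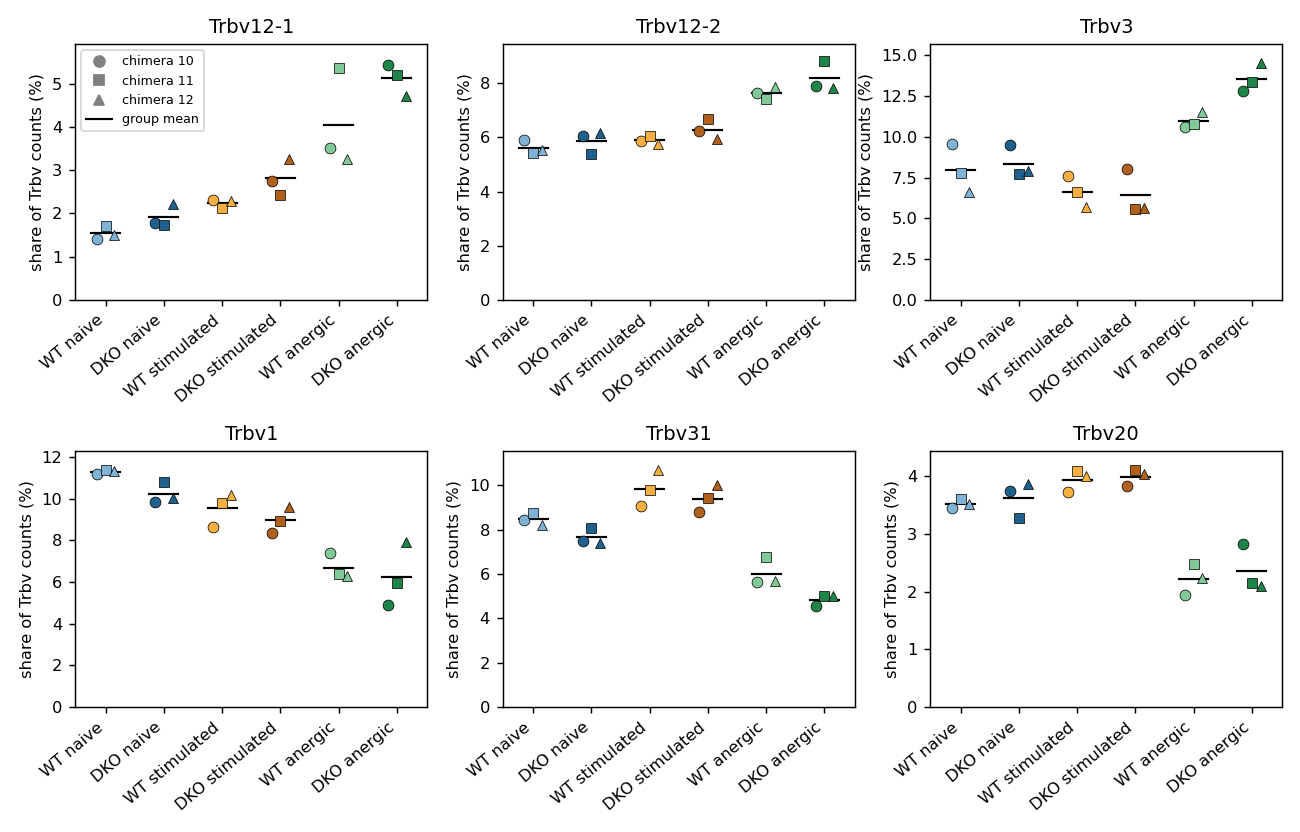
Share of Trbv counts (%) of 6 beta segments in each of the 18 libraries, with 1 symbol per chimera and a line at the mean of each group. In the top row the anergic libraries lie above the naive libraries of their genotype, and in the bottom row below them.

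Among the 17 beta segments of at least 1%, 4 lay wholly above and 5 wholly below the naive libraries in WT anergic cells, and 4 above and 6 below in DKO anergic cells. Trbv3, Trbv12-1 and Trbv12-2 lay above in both genotypes, Trbv1, Trbv13-3, Trbv14, Trbv20 and Trbv31 below in both, and no segment was above in one and below in the other. Of the same 17 segments, 5 lay above and 4 below the naive libraries in WT stimulated cells. In DKO stimulated cells 4 lay above and 5 below, so such counts are not particular to anergic cells. The share of all genes that separate in this way is not given here. The Vβ8 segments did not move together: Trbv13-3 averaged 7.57% in WT naive and 5.38% in WT anergic cells, and 7.34% and 5.02% in DKO cells (adjusted p = 0.104 and 0.0686, edgeR; on the whole-library RLE scale the DKO change was 0.08), while Trbv13-2 averaged 12.0% and 12.8% in WT and 11.4% and 12.1% in DKO cells. The cells of the anergic gate also differed from naive cells in Treg markers, as given above, and the part of Treg-like cells in these shares was not tested.

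Among alpha segments Trav7-4 and Trav4-4-dv10 were higher in anergic cells. Trav7-4 held 3.36, 3.27 and 3.31% in WT naive and 6.41, 4.68 and 4.63% in WT anergic cells, and 2.95, 2.91 and 3.12% in DKO naive and 3.89, 6.27 and 4.87% in DKO anergic cells. Its log2 change was 0.75 in DKO (standard error 0.23, adjusted p = 0.0410, edgeR) and 0.66 in WT cells (standard error 0.23, adjusted p = 0.0760), but the DKO call was lost with copies summed (adjusted p = 0.0691), with no filter on low counts (0.0747) and without chimera 10 (0.130) or chimera 11 (0.751), with changes of 0.53 to 0.89 when 1 chimera was left out. The 3 copies of Trav7-4 together had 5.69% ± 0.150 in WT naive and 8.38% ± 0.388 in WT anergic cells, and 5.03% ± 0.290 and 7.44% ± 1.31 in DKO cells (SD, n = 3 each). Trav4-4-dv10 held 2.78, 2.44 and 2.62% in WT naive and 4.32, 4.49 and 3.62% in WT anergic cells. In DKO cells it held 2.02, 2.29 and 2.44% in naive and 3.70, 5.99 and 3.52% in anergic cells, a log2 change of 0.95 (standard error 0.24, adjusted p = 0.00887), against 0.65 in WT cells (adjusted p = 0.0944). With 1 chimera left out the DKO change was 0.69 to 1.16, and it did not pass without chimera 10 or chimera 11 (adjusted p = 0.144 and 0.555). Both segments were higher in anergic than in naive cells in each chimera of each genotype, with no overlap. In stimulated cells, sorted through the naive gate, both were also above all naive libraries of their genotype, though neither passed there. A higher share than in naive cells was therefore not particular to anergic cells. Trav14d-3-dv8 had the widest alpha shift in DKO cells, from 7.67 to 5.24% on average (−2.43 ± 0.537 points, adjusted p = 0.0933), and averaged 5.36 and 4.06% in WT naive and anergic cells. Trav9-4, Trav16 and Trav7d-4 lay above, and Trav12-3, Trav13-1, Trav14-3 and Trav14d-3-dv8 below, the naive libraries in both genotypes.

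Alpha segments with few reads made up the rest of the calls. Trav13-5 had 0.855, 0.463 and 0.866% of Trav counts in WT naive, 0.0643, 0.0396 and 0.114% in WT anergic, 0.866, 0.705 and 0.827% in DKO naive and 0.0725, 0.291 and 0.0685% in DKO anergic cells. Its log2 change was −3.31 in WT (standard error 0.62, adjusted p = 0.000499, edgeR) and −2.47 in the DKO libraries (standard error 0.58, adjusted p = 0.00472, and 0.228 without chimera 10). Trav15-1-dv6-1, a segment that can also join to delta chain segments, had 1.01, 2.07 and 1.11% in WT naive and 0.278, 0.752 and 0.379% in WT anergic cells, and 1.28, 1.14 and 0.827% in DKO naive and 0.281, 0.345 and 0.442% in DKO anergic cells. Both were also lower in stimulated than in naive cells (below), a comparison that shares the naive libraries, so all 6 naive libraries were above the 12 others. Trav15d-3 had 8, 17 and 14 counts in WT naive and 0, 0 and 2 in WT anergic libraries, and passed in both genotypes. Trav18 had 18, 4 and 2 counts in DKO naive and 0, 1 and 2 in DKO anergic libraries. Trav22 had 23 counts over the 3 WT naive and 0 over the 3 WT anergic libraries, and against a floor of 3 counts over the group its share was at least 6.65-fold lower. For such counts the fitted change depends on the prior count. Without chimera 10 or chimera 11, Trav15-1-dv6-1, Trav15d-3, Trav18 and Trav22 did not pass in either genotype, while Trav15-1-dv6-1 kept changes of −1.70 to −1.49 in WT and −1.98 to −1.28 in DKO cells with 1 chimera left out.

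In all, 7 of the 102 tested segments passed in WT cells, 1 higher and 6 lower, where 9.85% of all 33795 tested genes passed. In DKO cells 10 passed, 4 higher and 6 lower, where 9.45% of all genes passed. Both counts are close to or under the share among all genes, so a shift of V segments as a class beyond other genes is not shown. The lists share Trav13-5, Trav15-1-dv6-1, Trav15d-3, Trbv1 and Trbv12-1, which is 71.4% of the WT list and 5 of the 10 in the DKO list. The counts depended on the libraries: in WT cells 2 segments passed without chimera 10, 2 without chimera 11 and 14 without chimera 12, and in DKO cells 1, 2 and 18. When the fit left out just the 2 WT libraries of chimera 12 that stood apart, they were 10 and 19. For these fits, and for the RLE counts below, the share of all genes that passed is not given here. Trbv12-1 was the 1 segment that passed in DKO cells without chimera 10. With values scaled to the whole library in place of the chain total, the DKO split was 8 higher and 0 lower by TMM (9.42% of all genes) and 7 and 0 by RLE, and the WT split 1 and 5 by TMM (9.82% of all genes) and 1 and 4 by RLE, since the chain totals then enter the comparison.

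**Figure D3:**
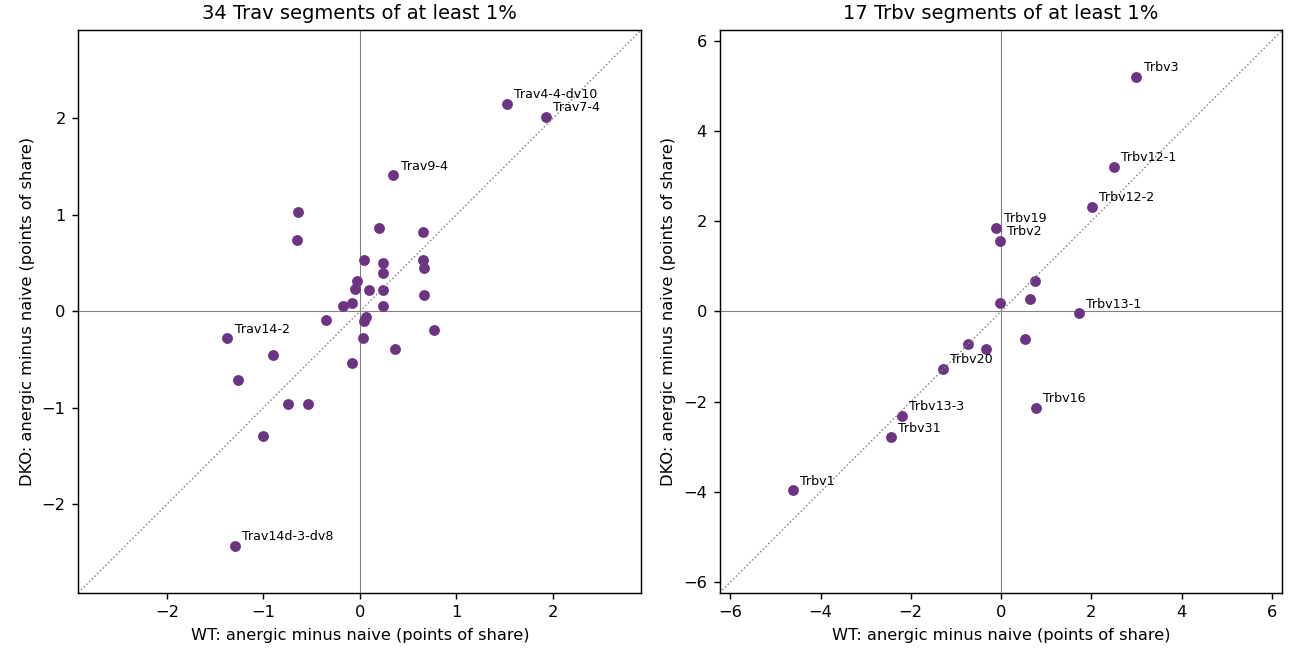
Anergic minus naive share, in percentage points and averaged over 3 chimeras, in WT cells (horizontal) and DKO cells (vertical) for the 34 alpha and 17 beta segments of at least 1%; the dotted line marks equal change. Trbv3 and Trbv12-1 lie at the upper right and Trbv1 and Trbv31 at the lower left, while Trbv19 and Trbv13-1 moved in 1 genotype more than in the other.

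The distance between 2 repertoires, the sum of the absolute differences in share divided by 2, gives the percentage of reads that would have to change segment. For beta segments it was 12.96 to 14.02% between anergic and naive cells of one chimera in WT and 13.5 to 18.1% in DKO cells. Between naive and stimulated cells of one chimera, which were sorted through the same gate, it was 6.48 to 8.10% and 7.86 to 8.99%. DKO and WT cells of one chimera were 4.01 to 5.61% apart as naive, 3.66 to 3.92% as stimulated and 8.83 to 15.3% as anergic cells. So anergic beta repertoires were further from naive ones than the 2 naive preparations were from each other, in all 6 chimera and genotype pairs. For alpha segments these ranges were closer: 14.1 to 18.1% in WT and 16.7 to 18.5% in DKO cells between anergic and naive, and 10.6 to 10.7% and 12.1 to 13.5% between naive and stimulated cells.

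The comparison of DKO with WT cells asks whether loss of Nr4a1 and Nr4a3 alters which receptors are found in each compartment. No segment passed the threshold in any compartment (edgeR, adjusted p under 0.05). In anergic cells 0 of 102 passed, where 1.34% of all genes passed. An unadjusted p under 0.05 was found for 12 of the 102 and for 2799 of all 33795 genes. In naive cells 0 passed (0.0947% of all genes), and 6 had such an unadjusted p (1772 of all genes). In stimulated cells 0 passed (0.216% of all genes), and 1 had such an unadjusted p (974 of all genes). DESeq2 called 2 segments in anergic cells, Trav16d-dv11 and Trav8-1, both higher in DKO cells, and 0 in naive and stimulated cells. The standard error of the log2 difference had a median of 0.20 over the 17 beta and 0.30 over the 34 alpha segments of at least 1%, which sets the size of shift that could be detected.

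For 4 beta segments the DKO and WT libraries of anergic cells did not overlap, though none of the 4 passed. Trbv3 averaged 13.6% in DKO and 11.0% in WT anergic cells, a difference of 2.58 ± 0.398 points (SD over 3 chimeras, adjusted p = 0.736). Trbv19 (Vβ6) had 8.87, 9.01 and 8.63% in DKO and 6.99, 7.69 and 5.90% in WT anergic cells (difference 1.98 ± 0.713 points, adjusted p = 0.594). Trbv13-1 had 5.05, 6.36 and 5.89% in DKO and 7.59, 7.54 and 7.86% in WT anergic cells (difference −1.90 ± 0.682 points, adjusted p = 0.527). Trbv31 was 1.17 points lower in DKO cells on average (difference −1.17 ± 0.555 points, adjusted p = 0.706). In each of these the 3 DKO libraries lay wholly to one side of the 3 WT libraries, as they did for 4 of the 17 beta and 8 of the 34 alpha segments of at least 1%. In stimulated cells that held for 1 beta and 13 alpha, in naive cells for 3 beta and 9 alpha segments. Such separation was therefore not particular to anergic cells, and the share of all genes that separate is not given here. Treg markers also differed between the genotypes in the anergic gate, and their part in these differences was not tested. Without chimera 12, Trav8-1 (higher in DKO cells), Trav5-1 and Trav7d-3 (both lower) passed in anergic cells, and in the fit that left out just the 2 WT libraries of chimera 12 that stood apart, Trav8-1 and Trav16d-dv11 passed (both higher). These segments were picked here after their values were seen.

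Trav14d-3-dv8, the most used alpha segment, was the only segment of at least 0.5% whose DKO and WT libraries did not overlap in naive, stimulated and anergic cells alike. Its shares were 8.32, 6.79 and 7.90% in DKO naive and 5.79, 5.25 and 5.03% in WT naive cells. In stimulated cells they were 5.76, 6.41 and 5.89% against 4.57, 4.28 and 4.15%, and in anergic cells 5.43, 4.95 and 5.33% against 4.70, 3.19 and 4.29%. The log2 difference was 0.52 in naive (standard error 0.20, unadjusted p = 0.0153, adjusted p = 0.768, edgeR), 0.48 in stimulated and 0.37 in anergic cells, and no adjusted p passed. Of its reads' possible stretches of 50 bases, 61.2% are unique to it. Summed with Trav14-3 and Trav14n-3, its near-identical copies, the DKO libraries lay above the WT libraries in stimulated cells only. In naive and in anergic cells the summed shares of the genotypes overlapped, so the separation there depends on the split of reads among copies.

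The stretch of the locus around it, with Trav14d-3-dv8 counted in, had a higher summed share in naive and stimulated DKO cells. When the span of the Trav locus is cut into 3 equal parts, the middle part, with 52 annotated segments, held 26.6 to 28.9% of Trav counts in DKO naive and 21.5 to 22.6% in WT naive cells. It held 26.04 to 27.16% in DKO stimulated and 21.3 to 22.5% in WT stimulated cells, again with no overlap. In anergic cells the ranges were 20.3 to 31.6% and 19.8 to 22.0% and overlapped. The part nearest to the Traj segments held 61.7% ± 1.41 (SD, n = 3) in DKO naive and 65.7% ± 0.404 in WT naive cells, and the part farthest from them 9.65% ± 0.465 and 11.5% ± 1.04. Of the middle segments Trav8d-2, Trav9n-1, Trav13n-1 and Trav9n-4 lay above the WT libraries in naive and in stimulated DKO cells. Trav14n-3, also a middle segment, went the other way. Its share was lower in DKO than in WT cells of each chimera, both naive and stimulated. Outside the middle part, Trav12-2 and Trbv12-1 lay above and Trav9-1 below the WT libraries in naive and in stimulated DKO cells. These sums were formed after the values were known and were not tested. Most of the middle segments are d or n copies, and the part played by the assignment of reads among copies was not tested. The donors differ in CD45 alleles as well as in genotype, and donor and genotype cannot be told apart.

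**Figure D4:**
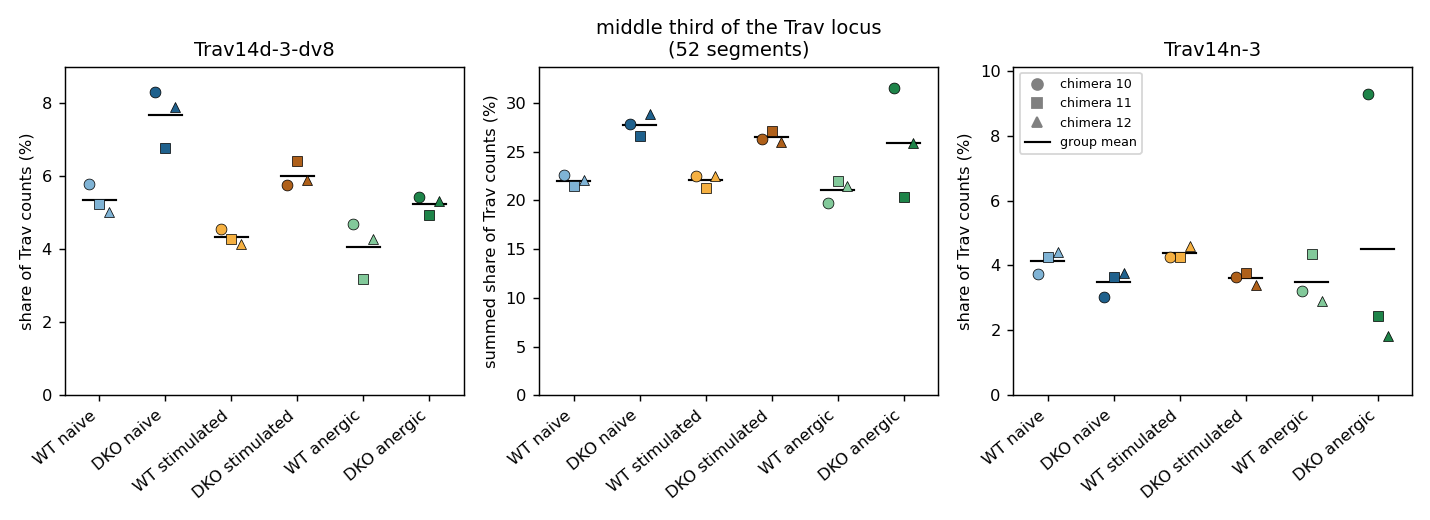
Share of Trav counts (%) in each of the 18 libraries for Trav14d-3-dv8, for the 52 segments in the middle of the Trav locus summed, and for Trav14n-3, with 1 symbol per chimera and a line at each group mean. The first lies above the WT libraries in DKO cells of all 3 states, the sum is higher in naive and stimulated DKO cells, and Trav14n-3 reached 9.27% in the DKO anergic library of chimera 10.

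Whether the change from naive to anergic cells differs by genotype was tested as an interaction. Of 102 segments 0 passed (edgeR), where 0.385% of all genes passed. An unadjusted p under 0.05 was found for 2, Trav8-1 and Trav18, and for 3588 of all 33795 genes. Scaled to the whole library by TMM the counts were 0 and 10, where 3587 of all genes had such an unadjusted p. DESeq2 was not run for the interaction. The interaction of Trav8-1 was 0.99 on the log2 scale (standard error 0.39, adjusted p = 0.447). For the 17 beta segments of at least 1% the log2 interaction ran from −0.68 to 0.36, with a median standard error of 0.28.

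After 3 h of stimulation the balance of alpha and beta V reads was different. Trav reads went from 353 ± 10.7 CPM in WT naive to 485 ± 18.7 CPM in WT stimulated cells and from 332 ± 3.27 to 440 ± 5.76 CPM in DKO cells (SD, n = 3 each). Trbv reads went from 694 ± 71.9 to 393 ± 11.1 CPM in WT and from 592 ± 19.5 to 316 ± 44.98 CPM in DKO cells. The ratio of Trav to Trbv counts was 0.511 ± 0.0398 in WT naive, 0.561 ± 0.0194 in DKO naive, 1.23 ± 0.0450 in WT stimulated and 1.41 ± 0.186 in DKO stimulated cells, and 0.490 ± 0.0440 and 0.541 ± 0.0859 in WT and DKO anergic cells. It was higher after stimulation in 6 of 6 pairs, by 2.17- to 2.80-fold. Scaled to the whole library, 11 alpha segments were higher and 3 beta segments lower in WT cells, and 19 alpha segments higher and 4 beta segments lower in DKO cells (TMM). Of all genes 11.9% passed in this fit in WT and 14.1% in DKO cells, so the WT count of 14 of 102 was close to that share. By RLE the split was 4 higher and 2 lower in WT and 24 higher and 0 lower in DKO cells, so the fall of beta segments in DKO cells depends on the scaling. Trac, the alpha constant gene, went up as well, by 1.02 on the log2 scale in WT (adjusted p = 0.0177, edgeR) and 1.10 in DKO cells (adjusted p = 0.00878). The beta constant genes Trbc1 and Trbc2 had log2 values of −0.29 and −0.40 in WT and −0.28 and −0.43 in DKO cells and did not pass. Of 60 Traj segments 22 were higher and 0 lower in each genotype, and of 16 Trbd and Trbj segments 0 passed, in the same fit with the same shares of all genes.

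Within each chain few segments passed. After scaling to the chain total, 2 of 102 segments passed in WT cells, where 11.9% of all genes passed, and 2 in DKO cells, where 14% passed. All were lower and both lists hold Trav13-5 and Trav15-1-dv6-1. Scaled to the whole library none of the 4 calls passed: the log2 change of Trav13-5 was −1.08 by TMM and −1.17 by RLE in WT cells and −1.50 and −1.31 in DKO cells, and that of Trav15-1-dv6-1 was −0.55 and −0.58 in WT and −0.45 and −0.29 in DKO cells. With no filter on low counts Trav15-1-dv6-1 did not pass either (adjusted p = 0.0570 in WT and 0.0838 in DKO cells). Leaving out chimera 10 or chimera 11 left 0 in both genotypes, leaving out chimera 12 gave 4 and 5, and leaving out its 2 WT libraries that stood apart gave 3 and 8. The share of all genes that passed in these smaller fits is not given here. Trbv12-1, higher in anergic than in naive cells of both genotypes, was at 2.31, 2.12 and 2.28% in WT stimulated and 2.76, 2.43 and 3.25% in DKO stimulated cells, above all naive and below all anergic libraries of its genotype. Trbv31 went the other way, with 9.05, 9.79 and 10.7% in WT stimulated cells, above the naive libraries. Trbv14 (Vβ13) had 1.63, 1.48 and 1.304% in WT stimulated against 2.23, 2.00 and 2.24% in WT naive cells. Trbv1, lower in anergic cells, was in stimulated cells below all naive and above all anergic libraries of its genotype. Its log2 change in share after stimulation was −0.25 in WT and −0.19 in DKO cells and did not pass. So shares also differed between naive and stimulated libraries, which were sorted through one gate.

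**Figure D5:**
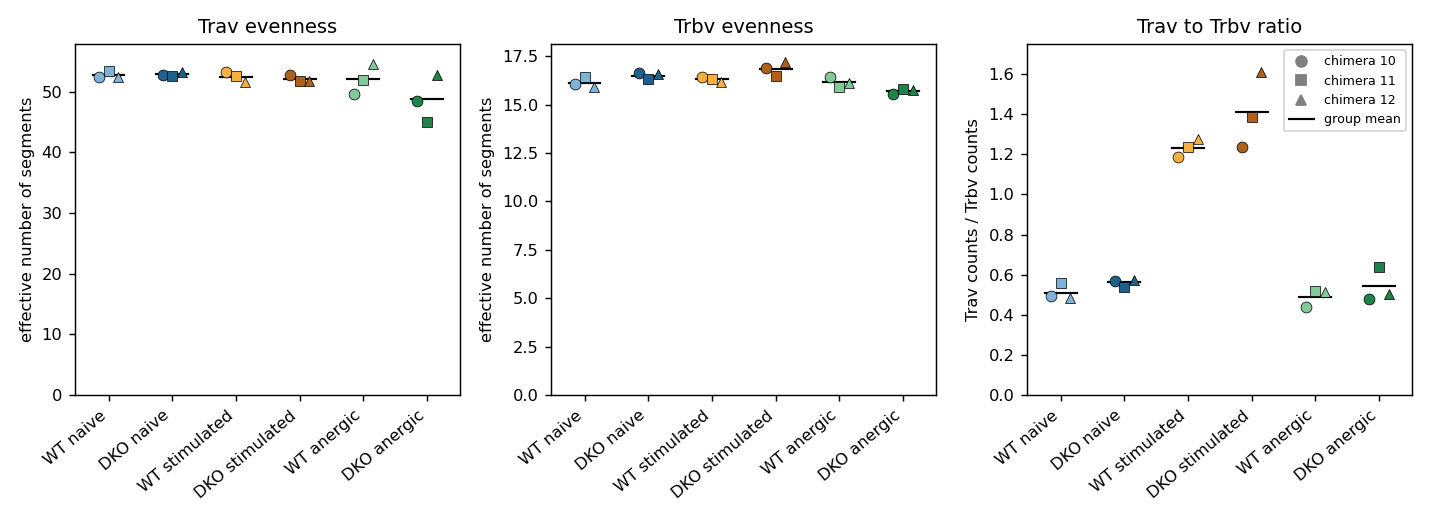
Effective number of alpha and of beta segments and the ratio of Trav to Trbv counts in each of the 18 libraries, with 1 symbol per chimera and a line at each group mean. The DKO anergic group has the lowest mean in both evenness panels, and the ratio is above 1 in the 6 stimulated libraries and below 1 in the other 12.

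Evenness was summarised by the effective number of segments, the number of equally used segments that would give the same Shannon entropy. For alpha it was 52.8 ± 0.633 in WT naive, 52.9 ± 0.292 in DKO naive, 52.5 ± 0.773 in WT stimulated and 52.2 ± 0.566 in DKO stimulated cells (SD, n = 3 each). WT anergic cells had 49.7, 51.9 and 54.6 and DKO anergic cells 48.4, 45.1 and 52.8 in chimeras 10, 11 and 12. The DKO value was lower in 3 of 3 chimeras, by 1.26 to 6.84 (mean difference −3.30 ± 3.07), and the ranges of the groups overlapped. DKO anergic cells were also under their naive counterparts in 3 of 3 chimeras (mean difference −4.15 ± 3.60), and WT anergic cells in 2 of 3 (−0.700 ± 2.58). For beta it was 16.1 in WT naive, 16.5 in DKO naive, 16.2 in WT anergic and 15.7 in DKO anergic cells on average. There the DKO anergic libraries had 15.5, 15.8 and 15.8, under all naive libraries and all WT anergic ones, and the drop from DKO naive cells was −0.798 ± 0.296 in 3 of 3 chimeras. The DKO anergic libraries were also deeper in V reads (11042 to 16069 Trav counts) than the WT anergic ones (7578 to 9338). No test was run on these indices.

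The spread between animals was wider in anergic than in naive cells. The median coefficient of variation over 3 chimeras for alpha segments of at least 1% was 9.67% in WT naive and 11.9% in DKO naive cells, 5.90% and 7.46% in stimulated cells, and 19.4% and 23.7% in anergic cells. For beta segments it was 6.34 and 7.09% in naive and 12.0 and 10.7% in anergic cells of WT and DKO origin. Alpha repertoires of different chimeras were 13.9 to 16.5% apart in WT anergic and 15.1 to 18.9% in DKO anergic cells, against 7.01 to 8.88% and 8.33 to 10.3% in naive cells. The widest alpha spread was in Trav14n-3, at 9.27% in the DKO anergic cells of chimera 10 and 2.44 and 1.83% in those of chimeras 11 and 12. In the WT anergic cells of chimera 10 it was 3.20%. The same DKO anergic library had Trbv2 (Vβ4) at 9.92%, against 5.69 and 5.46% in the other DKO anergic libraries. Trbv29 (Vβ7) had the widest beta spread in all 4 naive and stimulated groups and was highest in chimera 12 in each of them, with 1.40% in WT naive and 1.61% in DKO naive cells against 0.760 to 1.04% in chimeras 10 and 11.

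Trav11 and Trav11d encode the Vα14 chain of invariant NKT cells and had 19 and 12 counts in all 18 libraries, but neither has a stretch of 50 bases that is not shared with another copy, so a low count does not show that the segment is unused. The copy annotated as a pseudogene, Trav11n, had 347 counts. The 3 together held 0.210% ± 0.0458 of Trav counts in WT naive, 0.161% ± 0.0677 in DKO naive, 0.142% ± 0.0153 in WT stimulated, 0.1003% ± 0.0513 in DKO stimulated, 0.288% ± 0.264 in WT anergic and 0.235% ± 0.0279 in DKO anergic cells (SD, n = 3 each). Of 6 genes listed as invariant NKT markers, 2 passed as higher for DKO over WT anergic cells and 0 as lower (edgeR). The 6 genes summed to 520 to 638 TPM in WT anergic and 585 to 714 TPM in DKO anergic libraries. The sum was 457 to 509 TPM in WT naive and 361 to 444 TPM in DKO naive libraries. It was 628 to 794 TPM in WT stimulated and 601 to 640 TPM in DKO stimulated libraries. Traj18, a J segment of the alpha locus, is among the 6, and its part in the sum is not given here. Reads on all Traj segments averaged 123 CPM in WT naive and 215 CPM in WT stimulated cells, and 113 and 184 CPM in DKO cells. The chemokine receptor gene Cxcr6 had 53.8 ± 0.974 TPM in DKO and 11.2 ± 2.72 TPM in WT anergic cells, and Klrb1a, a killer cell lectin-like receptor gene, 10.3 ± 0.468 and 1.72 ± 1.14 TPM. In anergic over naive cells 2 passed as higher in WT and 3 in DKO cells, among them Klrb1c, with 27.9 ± 5.97 TPM in WT anergic and 1.74 ± 1.11 TPM in WT naive cells. Zbtb16, the transcription factor of invariant NKT cells, had at most 3.14 TPM and passed in none of these comparisons. The part of such cells in the shares was not tested. Trav1, the Vα19 segment of mucosal-associated invariant T cells, held 0.829% in WT naive, 1.01% in WT anergic and 0.705% in DKO anergic cells on average (DKO over WT, adjusted p = 0.757, edgeR).

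Beta segments that endogenous superantigens delete in mouse strains with I-E, which C57BL/6 mice lack, were present. The Vβ5 segments Trbv12-1 and Trbv12-2 belong to this set, and their shares were higher in anergic than in naive cells of both genotypes, as given above. Trbv16 and Trbv15 did not share that rise in both genotypes. Trbv16 had 7.89, 7.48 and 9.77% in WT naive and 10.2, 7.10 and 10.1% in WT anergic cells, and 8.88, 9.86 and 10.4% in DKO naive and 6.11, 8.89 and 7.74% in DKO anergic cells. It was lower in anergic than in naive cells in 3 of 3 chimeras in DKO and in 1 of 3 in WT cells, with groups that overlapped, and adjusted p = 0.377 in DKO and 0.764 in WT cells. Trbv15 (Vβ12) averaged 4.44 and 4.11% in WT naive and anergic and 4.53 and 3.69% in DKO naive and anergic cells.

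Of 12 other T cell receptor genes, 11 were tested on values scaled to the whole library. None passed between DKO and WT in any compartment. In DKO anergic against naive cells Cd4, Cd3g and Cd3e were higher and Dntt lower, and in WT cells Dntt alone passed, as lower; the median log2 change over all genes was −0.21 in the first and 0.26 in the second comparison. Dntt encodes the terminal transferase that adds bases at V, D and J joints. It had 39.96 ± 1.26 TPM in WT naive, 8.97 ± 2.28 in WT stimulated and 5.33 ± 1.48 in WT anergic cells, and 40.4 ± 4.33, 14.2 ± 2.07 and 2.76 ± 0.474 TPM in the DKO groups (SD, n = 3). Naive and other libraries did not overlap. Its log2 change from naive to anergic cells was −3.17 in WT (adjusted p = 1.09e-08) and −3.76 in DKO cells (adjusted p = 7.86e-10, edgeR).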

How the data were processed

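RNA of 18 sorted samples was made into SMART-seq v4 and Nextera XT libraries, which do not mark strand, and sequenced in pairs. The authors aligned reads to mm10 with STAR and deposited featureCounts read counts per gene and TPM values; how reads that match several places were handled, and any tool version, is not given in the sources used here. Deposited log2 fold changes and p-values of the authors' own comparisons were not used. Rows with no gene name (117 of 55401, 0.0654 to 0.136% of counts) were left out.

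Counts of all genes were fitted together with edgeR 4.0.16 (R 4.3.3; quasi-likelihood, filterByExpr), with a term for each of 6 groups and chimera as a blocking factor, as the same host carried both donors. The offset was the total of Trav or Trbv counts for their segments and the TMM library size for all other genes. P-values were adjusted (Benjamini-Hochberg) over 33795 genes, with a threshold of 0.05. Deviations of same-numbered WT and DKO libraries from their group means correlated at −0.316 to 0.421 over 51 segments, above 0.1 in 4 of 9 pairs. The labels name the 3 chimeras as separate animals. Effective numbers are the exponential of the Shannon entropy. TPM served for marker genes. Alternatives were no block, TMM or RLE scaling, DESeq2 1.42.0, no filter on low counts, only the groups compared, summed copies, leaving out 2 WT libraries of chimera 12 (naive and stimulated) that stood apart, and leaving out each chimera.

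Segments described by name were the 10 most used per chain, up to 5 higher and 5 lower calls per comparison, Trav11, Trav11d, Trav1, Trbv12-1, Trbv12-2, Trbv15, Trbv16 and the Trbv13 segments; others were picked after their values were seen. Members and lists were chosen with earlier results of these data known. GENCODE vM21 annotates 163 of the 165 segments.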

Additional observations from a re-analysis of the deposited data

Results flagged for a closer look

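The effective number of Trbv segments, DKO minus WT, was −0.451 in anergic cells, lower in 3 of 3 chimeras, and 0.554 in stimulated cells, higher in 3 of 3 chimeras. It stood out because each chimera went one way in one compartment and the opposite way in the other. The share of Trav14-1, DKO minus WT, was −0.860 points in anergic cells and 0.0634 points in stimulated cells, with the same pattern of 3 of 3 chimeras each. Neither difference between compartments was tested.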

How the results depend on the processing

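Without the replicate block (the chimera) the counts of segments passed were 7 in WT and 10 in DKO cells for anergic over naive, and no count in any of the 7 comparisons changed. With whole-library scaling, stimulated over naive gave 14 segments in WT and 23 in DKO cells by TMM and 6 and 24 by RLE, since chain totals then enter; by RLE the log2 change of anergic over naive DKO cells turned to 0.0778 for Trbv13-3 and 0.0239 for Trbv20, neither of which had passed. DESeq2 gave 2 for DKO over WT in anergic cells, 16 for anergic over naive in DKO cells and 5 (WT) and 4 (DKO) for stimulated over naive. With no filter on low counts stimulated over naive gave 1 and 1. With only the groups compared, anergic over naive gave 3 in WT and 19 in DKO cells and stimulated over naive 15 in DKO cells. Without 2 WT libraries of chimera 12 (naive and stimulated) the counts were 2 (DKO over WT, anergic), 19 (anergic over naive, DKO) and 8 (stimulated over naive, DKO). Leaving out each chimera gave 0 to 3 for DKO over WT in anergic cells, 2 to 14 (WT) and 1 to 18 (DKO) for anergic over naive, and 0 to 4 (WT) and 0 to 5 (DKO) for stimulated over naive. The share of all genes that passed is given only for the main fit and for TMM scaling to the whole library. Counts under the other settings therefore cannot be set against other genes. The causes were not tested.

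The effective numbers kept their values within 1 SD between chimeras in 51 of 52 alternatives. The exception was the alpha difference DKO minus WT in naive cells, −1.57 with the inverse Simpson index. Alpha calls are limited by reads shared among copies, and low segments by counts under 20 a library.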
